A study of Arabidopsis thaliana with 12 samples.

Results

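AT1G09200 and AT1G13370 are genes of the histone H3 family of Arabidopsis thaliana, and each was measured by 1 array probe that lists no other gene. They were found by locus in the platform's probe annotation by a rule that uses no intensity, though earlier results of these data were known when they were chosen, and theirs are 2 of the 692 probes that list 1 gene, among 3439 probes in all. The RefSeq table (assembly TAIR10.1) lists AT1G09200 as an H3.1 gene, the canonical class. For AT1G13370 it gives no class, and that gene is treated here as variant-like only because it is not listed as H3.1. No build is named for the array, so no coordinates are given, and the probe sequences were not used here.

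Histone H3 is a core protein of the nucleosome, around which nuclear DNA is wrapped. In plants, as in animals, canonical H3.1 is supplied mainly during DNA replication, whereas H3.3 replaces it outside replication, largely at transcribed genes. Further variants serve single purposes, such as the centromeric H3 that marks where the kinetochore forms and an H3 of the male gametes. H3.1 genes have very similar coding sequences, so a probe for 1 of them may also bind RNA from its copies, and the signals below are those of the probes.

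Total RNA came from wild-type plants of the Columbia 0 ecotype. The normal light group, with 6 samples, was grown at 80 µE and is titled 0 h, and the high light group, also with 6, was exposed to 1000 µE for 1 h. Since there is no group left at 80 µE for 1 h, the light and the passing of time cannot be told apart. Tissue, plant age and batch are not given in the labels. Nor do they state whether replicates are separate plants, and every p-value below covers only the scatter among the arrays, part of which may be technical. Arrays with neighbouring numbers in a group (1 and 2, 3 and 4, 5 and 6) were more alike than the others, with a mean correlation of log2 values across probes of 0.713 against 0.613. Such pairs may be repeats of the same RNA, which the labels do not settle, and n would then be 3 per group. Tests with the pairs averaged are therefore given beside those of 6 against 6 for percentiles and quantile-normalised values, and not for the other scales.

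The deposited intensities are linear, in arbitrary units, and their distribution differed between the groups. The median probe of a sample stood at 0.115 to 0.130 in the normal light group, compared with 0.338 to 0.357 after high light. Exact zeros made up 396 to 470 probes per sample in the former and 167 to 209 in the latter. A change of a gene therefore has a different size as deposited and relative to the other probes, and both are given. Neither H3 probe was at 0 in any sample, and both lay far below the largest value of the table, 100.

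As deposited, the intensity of AT1G09200 did not differ between the groups beyond the spread of the samples, while its place among the probes of the array was lower in high light. In normal light its intensity was 0.366, 0.448, 0.169, 0.289, 0.482 and 0.415 in samples 1 to 6. In high light it was 0.334, 0.406, 0.280, 0.380, 0.430 and 0.346. The high light values all lie inside the range of the normal light values, whose lowest is sample 3. The means were 0.362 ± 0.116 and 0.363 ± 0.054 (SD, n = 6), and the log2 change of 0.070 had a 95% interval of -0.48 to 0.62 (limma, adjusted p = 0.815). On that scale the median probe was 1.47 higher in high light, 49.4% of probes were called higher and 5.64% lower.

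Relative to the other probes, AT1G09200 fell. The share of probes of the same array that lay below it, its percentile, was 57.7 to 81.5 in the normal light samples (median 78.0) and 43.1 to 57.2 in the high light samples (median 51.3). The highest high light sample thus stayed just under the lowest normal light sample, which was again sample 3. How many of all probes separate by percentile was not counted. For the quantile-normalised values below, the groups did not overlap for 30.7% of all probes. The mean percentile went from 74.5 ± 8.94 to 51.1 ± 5.27 (SD, n = 6), with an exact permutation p of 0.00216 (2-sided), the smallest that 6 against 6 samples can give. With the pairs averaged the exact p was 0.10, the smallest that 3 against 3 can give, so that the test cannot pass in that case. This measure depends on ranks within an array and not on how the columns are scaled, and it was added after the data were seen. The quantile-normalised values below are set by the same ranks, so they are not separate evidence.

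Quantile normalisation, which gives every array the same distribution of values, put the normalised intensity of AT1G09200 at 0.617, 0.719, 0.297, 0.466, 0.676 and 0.602 in normal light. In high light the normalised values were 0.225, 0.278, 0.192, 0.262, 0.292 and 0.230. The groups did not overlap, although normal light sample 3 stood only slightly above high light sample 5. The log2 change was -1.15 (SE 0.218, 95% interval -1.63 to -0.67, limma, adjusted p = 0.00156), which is 2.22-fold lower. With the pairs averaged the adjusted p in limma was 0.049, just past the threshold. Over all probes, 37.8% were called on this scale (22.0% lower and 15.8% higher), and the groups did not overlap for 30.7%, so a call of this kind was frequent on these arrays and does not set the gene apart. In bulk RNA, fewer cells that hold a transcript and less of it per cell cannot be told apart.

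AT1G13370, the variant-like gene, also fell relative to the other probes and did not pass the test as deposited. Its deposited intensity was 0.412, 0.445, 0.361, 0.283, 0.436 and 0.346 in normal light. In high light it was 0.401, 0.348, 0.289, 0.196, 0.325 and 0.327. The groups overlapped, with 3 of 6 normal light samples above every high light sample and high light sample 4 the lowest of all 12. The means were 0.380 ± 0.062 and 0.314 ± 0.069 (SD, n = 6), a log2 change of -0.29 with a 95% interval of -0.71 to 0.12 that did not pass the test (limma, adjusted p = 0.195).

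Its place among the probes fell further than the spread between samples. The percentile was 70.8 to 81.3 in normal light (median 77.2) and 30.6 to 55.2 in high light (median 47.4), so that the groups did not overlap. How many of all probes separate by percentile was not counted, and after quantile normalisation 30.7% did. The mean went from 76.8 ± 3.97 to 45.8 ± 8.25 (SD, n = 6; exact permutation test, p = 0.00216, the smallest possible), and the exact p was 0.10 with the pairs averaged, again the smallest possible. With both genes tested in this way, the Benjamini-Hochberg adjusted value was 0.00216 for each.

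After quantile normalisation AT1G13370 had intensities of 0.678, 0.712, 0.554, 0.457, 0.622 and 0.518 in normal light. In high light these were 0.275, 0.233, 0.200, 0.128, 0.221 and 0.217. Every normal light sample exceeded every high light sample, and on this scale the groups did not overlap for 30.7% of all probes. Of all probes, 22.0% were called lower there. The log2 change was -1.496 (SE 0.188, 95% interval -1.91 to -1.08, limma, adjusted p = 9.95e-05), which is 2.82-fold lower, and the adjusted p in limma was 0.021 with the pairs averaged.

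**Figure D1:**
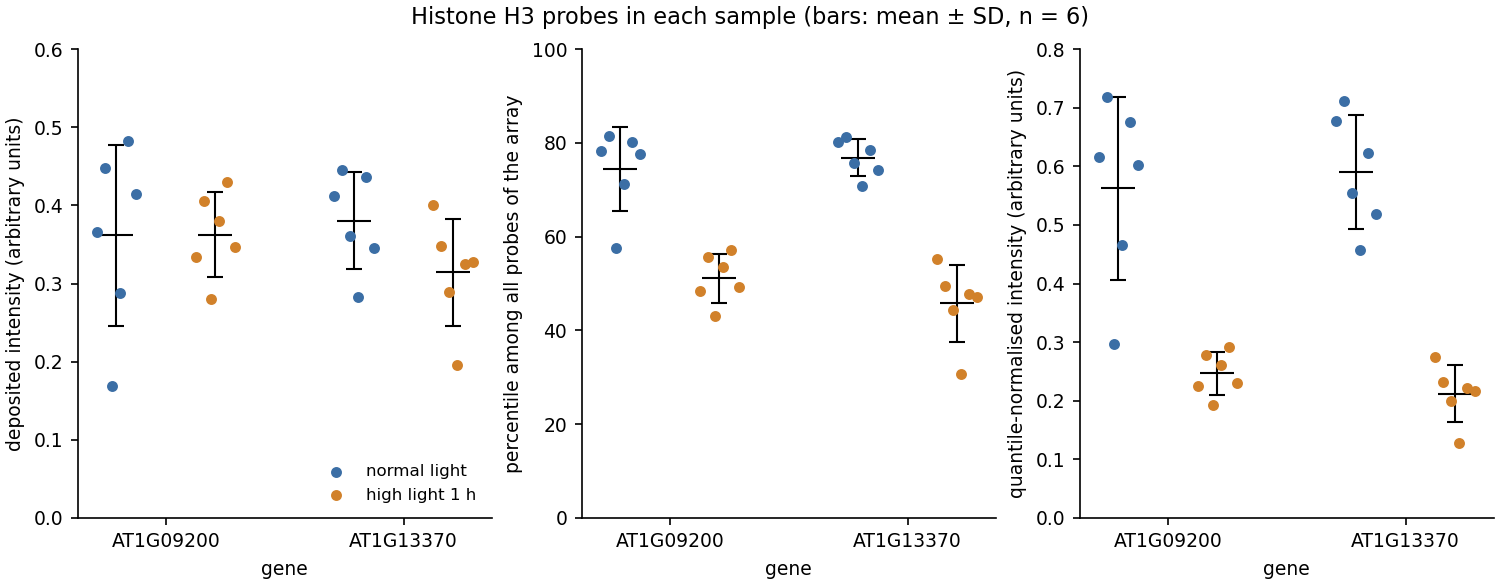
Values of the probes for AT1G09200 and AT1G13370 in each of the 12 samples as deposited intensity (left, arbitrary units), as percentile among the 3439 probes of the array (middle) and as quantile-normalised intensity (right, arbitrary units). Points are samples, with normal light in blue and high light in orange, and black bars give the mean ± SD of 6. The groups overlap in deposited intensity for both genes and do not overlap in percentile or normalised intensity. In normalised intensity the groups do not overlap for 30.7% of all probes.

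The size of both changes followed the scale, but their rank among all changes hardly moved. With columns scaled to a common median, the log2 change was -1.42 for AT1G09200 and -1.78 for AT1G13370 (limma, adjusted p = 9.79e-04 and 1.89e-05), where 26.5% of all probes were called lower. With cyclic loess, which aligns arrays along intensity, it was -1.07 and -1.44 (limma, adjusted p = 0.0081 and 2.56e-04), beside 18.5% of probes called lower, and there 5 of 6 normal light samples of AT1G09200 exceeded every high light sample. On the 4 scales, 17.3% to 19.1% of all probes had a lower log2 change than AT1G09200 and 11.9% to 13.9% a lower one than AT1G13370. Between the deposited scale and the common median the rank could move only through probes with zeros. A constant per column shifts the log2 changes of all other probes alike. The median probe moved from 1.47 as deposited to 0.16, 0.18 and 0.014 under quantile normalisation, cyclic loess and the common median.

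**Figure D2:**
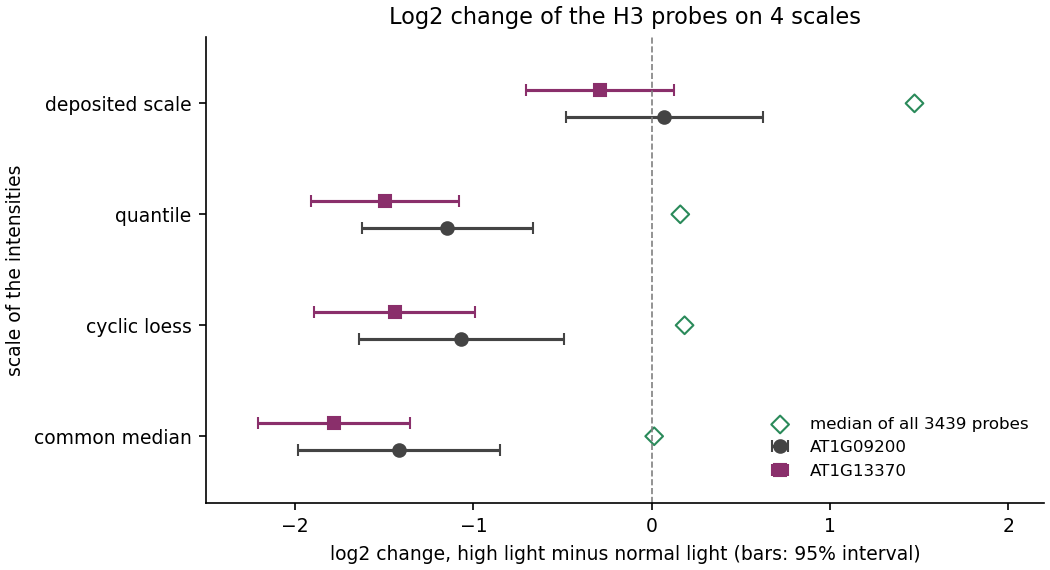
Log2 change from normal to high light (x axis) of AT1G09200 (circles) and AT1G13370 (squares) on 4 scales of the intensities (y axis), with 95% intervals from limma, and the median of all 3439 probes (open diamonds). Both intervals include 0 on the deposited scale and lie below 0 on the other 3, and both genes lie to the left of the median probe on each scale.

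Canonical and variant-like H3 were set against each other by the ratio of the 2 probes within each array, from which any common scaling of a column drops out. The log2 ratio of AT1G09200 to AT1G13370, as deposited, was -0.17, 0.010, -1.09, 0.029, 0.14 and 0.26 in normal light. In high light it was -0.26, 0.22, -0.048, 0.95, 0.40 and 0.083. The groups overlapped, and the values farthest out, normal light sample 3 and high light sample 4, are the samples in which AT1G09200 and AT1G13370, respectively, were lowest. The mean log2 ratio was -0.14 ± 0.49 (SD, n = 6) for normal light, compared with 0.23 ± 0.42 (SD, n = 6) for high light.

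A difference between the change of the canonical gene and that of the variant-like gene was not shown. On normalised values AT1G09200 fell by 0.35 less on the log2 scale than AT1G13370, with a 95% interval of -0.16 to 0.93 (exact permutation test, 2-sided, p = 0.221). With the pairs averaged the exact permutation p was 0.20, where 0.10 is the smallest possible. As deposited, the difference was 0.36, with an interval of -0.17 to 0.98 (exact permutation test, p = 0.238). These intervals come from inverting the exact test and still hold a difference of almost 1 log2 unit. Without normal light sample 3 the normalised difference was 0.19 (exact permutation test, p = 0.452), and without high light sample 4 it was also 0.19 (p = 0.457, exact), so each of these samples alone moved it by more than 1.5 times.

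**Figure D3:**
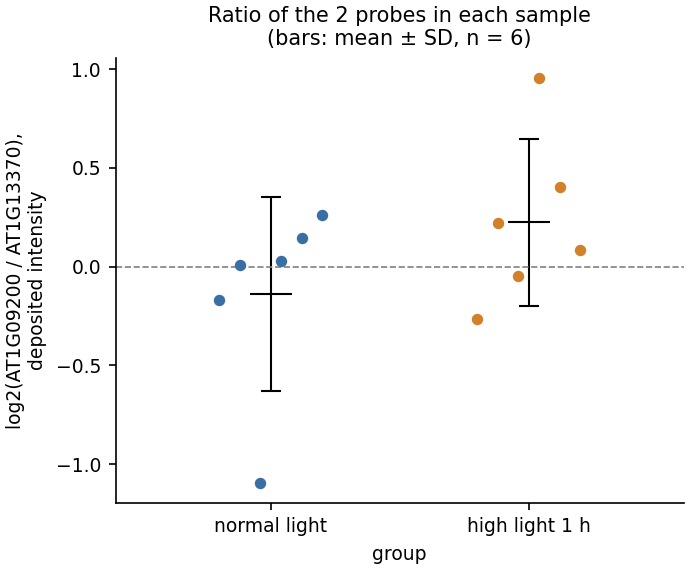
Log2 ratio of the deposited intensity of AT1G09200 to that of AT1G13370 (y axis) in the 6 normal light and 6 high light samples (x axis). Points are samples and bars the mean ± SD. The groups overlap, with normal light from -1.09 to 0.26 and high light from -0.26 to 0.95.

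The spread of the 2 probes between samples was below that of most probes. The SD of normalised log2 values within groups was 0.371 for AT1G09200 and 0.315 for AT1G13370, against a median of 0.576 over all probes. That median takes in probes at 0 in some samples only, whose SD the floor for zeros makes large. Neither H3 probe had a zero, and a median without such probes was not worked out. The canonical gene varied more in normal light (SD 0.475) than in high light (0.224), and the variant-like gene the other way (0.244 and 0.373). The low samples were the ones named above, normal light sample 3 and high light sample 4.

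Other genes of the H3 family could be followed in part. Of 13 H3 genes in the lists used, 11 were listed by some probe, and 7 probes listed H3 genes only, 3 of them for 1 gene and 4 for several. Another probe listed H3 together with other genes and was not followed, so the 7 do not cover all 11 genes. The 4 shared probes were taken up after their values had been seen, and none measures a single gene. Those of H3.1 and of H3.3 list genes of the same class, and the other lists a centromeric and a male-gamete gene. Of the 7, 5 fell, 0 rose and 2 did not pass the test after quantile normalisation, with a median log2 change of -1.15, beside 22.0% of all probes called lower and a median of 0.16. As deposited, 2 of the 7 were called lower, 1 higher and 4 neither, with a median of -0.29, beside 5.64% of all probes called lower, 49.4% called higher and a median of 1.47. These counts and both medians of the 7 include AT5G65360, whose change rests on the floor for zeros. That it did not pass is therefore no evidence of an unchanged level.

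The third probe for 1 gene was that of AT5G65360, another H3.1 gene. It was listed at 0 in 4 of 6 normal light samples and in 4 of 6 high light samples. The remaining values were 0.057 and 0.031 in normal light and 0.046 and 0.037 in high light, so no change is given for it.

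The probe that lists 2 other H3.1 genes was brighter than this and fell. Its deposited intensity was 0.974, 0.944, 0.828, 0.900, 0.630 and 0.801 in normal light. In high light it was 0.709, 0.785, 0.633, 0.558, 0.655 and 0.570. The groups overlapped because of the low normal light sample 5. The log2 change was -0.37 as deposited (SE 0.142, limma, adjusted p = 0.045). After normalisation it was -1.24 (SE 0.155, limma, adjusted p = 9.80e-05, and 0.025 with the pairs averaged). Of all probes, 5.64% were called lower as deposited and 22.0% after normalisation. Unlike AT1G09200, this H3.1 probe also passed the test as deposited. The 95% intervals there, -0.69 to -0.06 for this probe and -0.48 to 0.62 for AT1G09200, overlapped. A difference between these probes was not tested.

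Of the replacement class, H3.3, 1 probe lists 3 genes and another lists 2 of the same 3, so the 2 probes are not independent. The probe of 2 genes had deposited intensities of 1.104, 0.899, 0.818, 1.04, 0.931 and 0.910 in normal light. In high light they were 0.408, 0.529, 0.499, 0.562, 0.573 and 0.556. No sample of either group reached the other, as was so for 48.0% of all probes on the deposited scale. The log2 change was -0.87 as deposited (SE 0.126, limma, adjusted p = 1.85e-04) and -1.77 after normalisation (SE 0.122, limma, adjusted p = 1.88e-06), the most negative of the H3 probes above 0 in every sample. With the pairs averaged the adjusted p in limma was 0.0073 after normalisation.

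The H3.3 probe of 3 genes had deposited intensities of 1.21, 1.08, 0.871, 0.838, 1.75 and 1.63 in normal light. In high light they were 1.09, 1.03, 0.827, 0.769, 1.04 and 0.852. The groups overlapped, and samples 5 and 6 were the brightest of normal light. The log2 change was -0.35 as deposited (SE 0.210, limma, adjusted p = 0.165) and -1.08 after normalisation (SE 0.188, limma, adjusted p = 9.21e-04), and this last call was lost with samples averaged in pairs (limma, adjusted p = 0.056), where 12.5% of all probes were called lower.

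A probe that lists a centromeric and a male-gamete H3 gene was dim and went the other way as deposited. Its deposited intensity ran from 0.010 to 0.072 under normal light, below every high light value (0.145 to 0.312). On that scale the groups did not overlap for 48.0% of all probes, and 49.4% were called higher. The log2 change was 2.44 as deposited (SE 0.470, limma, adjusted p = 0.00129), beside 1.47 for the median probe. After normalisation the groups overlapped, at 0.048 to 0.150 and 0.091 to 0.205. The log2 change of 0.40 (SE 0.317) did not pass the test (limma, adjusted p = 0.332, and 0.50 with the pairs averaged).

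**Figure D4:**
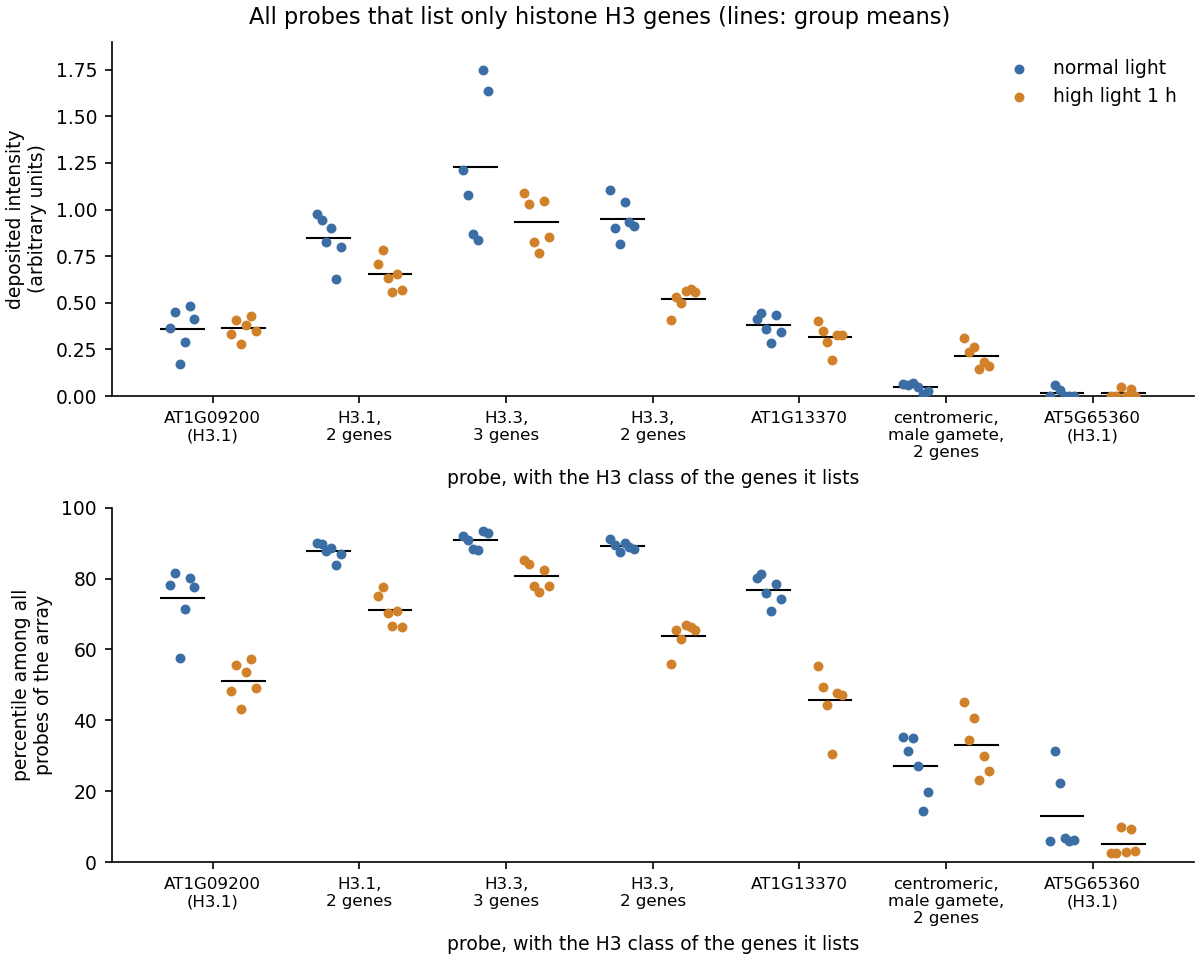
Deposited intensity (top, arbitrary units) and percentile among all probes of the array (bottom) of the 7 probes that list only histone H3 genes (x axis, with the class of the genes listed), in the 6 normal light (blue) and 6 high light (orange) samples. Points are samples and lines group means. The percentiles of the 2 H3.3 probes, the H3.1 probe of 2 genes, AT1G09200 and AT1G13370 lie lower in high light with no overlap between the groups. Those of the dim centromeric and male-gamete probe and of AT5G65360 overlap. The share of all probes whose percentiles do not overlap was not counted. After quantile normalisation the groups did not overlap for 30.7% of all probes.

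Apart from H3, the lists of other histones, histone chaperones, enzymes that modify H3, DNA replication, cell cycle regulators, shoot meristem and pollen genes could not be followed. Of the 121 genes in the 13 lists, AT5G65360 was the only one besides AT1G09200 and AT1G13370 with a probe to itself. Cell division and the share of dividing cells were therefore not measured beside the H3 signals.

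The genes whose profile was most like that of AT1G09200 were AT1G65370, PSBY, AT2G47360 and AT1G06730. Likeness was the root mean square difference of normalised log2 values over the 12 samples, after centring each gene on its mean, among 421 other probes of 1 gene above 0 in all samples. It was 0.227, 0.266, 0.277 and 0.288, against a median of 0.786 for the 421. Their normalised log2 changes were -0.95, -1.15, -0.94 and -1.19. As deposited these were 0.57, -0.52, -0.29 and 0.19, beside 1.47 for the median probe. The values above 0, of AT1G65370 and AT1G06730, did not pass the test (limma, adjusted p = 0.147 and 0.429). PSBY encodes a small subunit of photosystem II. AT1G13370 ranked 38 in this order, at 0.431.

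For AT1G13370 the most alike were AT1G01500, AT2G37510, AT4G30680 and AT1G79220, at 0.235, 0.235, 0.262 and 0.274, against a median of 0.906. Their normalised log2 changes were -1.68, -1.29, -1.42 and -1.46, and -0.60, -0.69, -0.49 and -0.59 as deposited. AT1G09200 ranked 33 in this order. The canonical and the variant-like H3 gene were thus not each other's nearest profile. The measure takes in the difference between the groups as well as the spread between samples, and it is a description of these 12 samples.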

How the data were processed

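RNA of 12 Arabidopsis samples, 6 in normal light and 6 in high light by their titles, was measured on arrays. The deposited values are linear intensities; the scanner, background and scaling behind them are not stated by the labels or the table. Probes were named through the platform annotation and the RefSeq table of TAIR10.1. Of 3439 probes, 692 list 1 gene, of which 690 matched the table, 870 list several and 1877 were not listed. Probes of several genes named none of them.

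Column medians differed by a factor of 3.10, above the 1.1 allowed, so intensities were quantile-normalised between arrays. Zeros were raised after that to 9.02e-06, the smallest value above 0 in the table, and the groups were compared on the log2 scale by limma 3.58.1 under R 4.3.3 (lmFit, eBayes, 2-sided), with Benjamini-Hochberg adjustment over 3439 probes and a threshold of 0.05. The fit was tested on simulated data. The ratio of the 2 probes and their percentiles were compared by exact permutation over all 924 assignments of 6 arrays to each group. The number of arrays limits the precision.

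The genes named are the 2 H3 genes, the members of 13 lists with a probe to themselves and the 4 genes nearest in profile to each. Genes and lists were chosen with earlier results of these data known. The shared H3 probes and the percentiles were added after the data were seen. Alternatives were the deposited scale, a common median, cyclic loess, an offset of 0.0056, a floor of 0.05, leaving out the dimmest 25% of probes, subtracting a 1% background, other limma settings, averaged or correlated pairs of samples, numbers as a block and each sample left out.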

Additional observations from a re-analysis of the deposited data

How the results depend on the processing

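The deposited scale was the setting that changed a call of the 2 genes: the log2 change of AT1G09200 turned to 0.070 (limma, adjusted p = 0.815) and that of AT1G13370 shrank to -0.29 (limma, adjusted p = 0.195), where the median probe shifted by 1.47. Subtracting a 1% background could change nothing, since each array holds so many zeros that the background is 0. Under the other 22 alternatives for each gene the direction and the call stayed. When neighbouring numbers (1 with 2, 3 with 4, 5 with 6) were averaged, the adjusted p in limma was 0.049 for AT1G09200, close to the threshold, and 0.021 for AT1G13370. Leaving out 1 sample gave log2 changes of -1.31 to -1.06 and of -1.61 to -1.37. The difference between the 2 changes, 0.35, did not pass the exact permutation test under any of the 17 alternatives that could change it (p from 0.084 to 0.457), with 0.19 to 0.46 on leaving out 1 sample. The background and the floor of 0.05 could not move it, and 3 averaged samples against 3 cannot go below 0.10. For the same reason the percentile changes did not pass with pairs averaged (exact permutation p = 0.10 each). Over all probes 1300 were called (543 higher, 757 lower), and 759 (330 and 429) with pairs averaged, 1698 higher and 194 lower as deposited, and 391 and 911 with a common median.

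Pairing by equal numbers was described and not tested. Across probes, the correlation of deviations from the group means ran from -0.0063 to 0.065 between samples of equal number. For 4 of 12 samples the own number gave the highest value, and how many would do so without pairing was not worked out. These values concern numbers across the groups and not the likeness of neighbouring numbers within a group, for which the pairs were averaged. With numbers as a replicate block the changes were -1.15 (limma, adjusted p = 0.0034) and -1.496 (limma, adjusted p = 8.66e-04), the difference 0.35 (exact permutation of signs, p = 0.156), and 1195 probes were called.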
